A study of Octopus bimaculoides with 16 samples.

Results

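Described here are 33 genes of the octopus Octopus bimaculoides that were abundant in the whole sucker cup, several-fold lower in cells dissociated from sucker rims, and nearly without reads in mantle skin. They were picked from 15842 genes by their levels in CPM, the reads of a gene scaled to a library of 1000000 reads. A gene was taken when its mean over the 2 whole cup libraries was at least 10 CPM, when CPM + 1 in each of these libraries was at least 4-fold above rim cells, and when mantle skin lay under 1 CPM. Levels in whole cup, rim cells and mantle skin therefore chose the genes, and are given below as a description. Olfactory organ, eye, optic lobe and statocyst did not enter the choice.

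The study sequenced messenger RNA from hand-dissected sensory organs and other tissues, with 8 libraries in all, each run on 2 lanes. The whole sucker cup, from the arm named R1, had 2 libraries, labelled automated and manual, 2 words that the labels leave unexplained. Single libraries came from dissociated cells of sucker rims (the title names 8 suckers and no arm), mantle skin, olfactory organ, eye, optic lobe of the brain, and statocyst, the organ of balance. The labels give no animals, ages, strains or treatments, and nothing says that the 2 whole cup libraries came from separate suckers, so their spread may be technical. Outside the whole cup no tissue was replicated, and no significance test between tissues was possible. Intervals are 95% intervals of counting error only and leave out variation between animals or dissections. As the reads carry no stated molecular identifiers, these intervals may also be too narrow for counting error itself. Libraries held 4782744 (mantle skin) to 36916825 reads (rim cells), with 11830859 and 8293516 in the automated and manual whole cup libraries. Each comparison of whole cup with rim cells also compares intact with dissociated tissue and possibly different suckers, which cannot be told apart.

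An octopus sucker is built of a disc-shaped infundibulum, bordered by a soft rim, and a deeper chamber, the acetabulum. It holds muscle, connective tissue, nerves, gland cells and an epithelium with sensory cells, and the infundibulum is lined by a cuticle that is renewed by shedding. Sensory cells that taste by touch lie in the sucker epithelium, whereas mantle skin is a body surface without suckers. The deposited table and the reference gene table carry identifiers and no gene functions for any of the 33 genes, so they are ordered here by level and by where else they appeared, and lists of muscle, nerve, gland or skin markers were not applied.

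The genes were low in rim cells and not absent from them. All 33 had reads there, 19 reached 10 CPM, 5 reached 100 CPM, and 4 lay under 1 CPM. Among the 7833 genes with at least 10 CPM in whole cup, 261 (3.33%) met the 4-fold condition against rim cells, and 91 (1.16%) lay under 1 CPM in rim cells. Of the same 7833 genes, 7399 (94.5%) reached 10 CPM in rim cells and only 23 (0.294%) had no read there. Having reads in rim cells is therefore not particular to the 33 genes. In mantle skin 110 of the 7833 genes (1.4%) lay under 1 CPM. The 33 genes are those that met both conditions. They held 2.63% of the reads of the automated whole cup library (2.62 to 2.64%, Wilson interval) and 2.59% of the manual library (2.57 to 2.60%). In rim cells they held 0.194% of the reads (0.192 to 0.195%), and in mantle skin 28 reads in all. In bulk RNA, fewer cells of a type and less RNA per cell cannot be told apart.

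**Figure D1:**
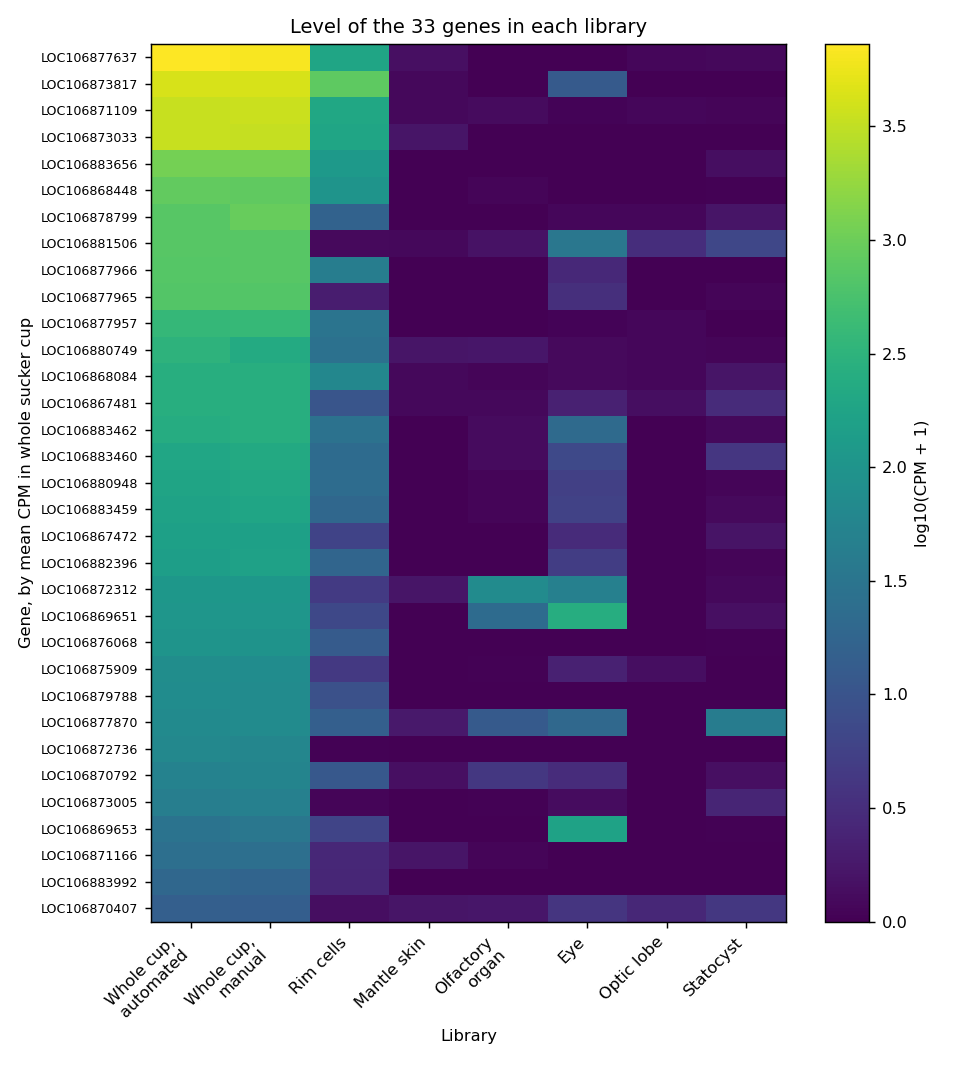
Level of each of the 33 genes (rows, by mean CPM in whole cup) in each of the 8 libraries (columns), as log10(CPM + 1). Both whole cup columns fade from top to bottom by the order of the rows, and rim cells are darker than whole cup in every row by the rule. Mantle skin and optic lobe are dark, and eye is the most uneven of the remaining columns, with LOC106869651 and LOC106869653 brightest there.

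Whole cup levels spanned 13.5 to 7001 CPM, with a median of 194 CPM. Of the 33 genes, 5 reached 1000 CPM and 22 reached 100 CPM, against 109 and 1828 of the 7833 genes. Of the 77 whole cup genes under 1 CPM in skin but not low in rim cells, 11 and 32 did. The 4 most abundant accounted for 70.0% of the reads of the 33 genes in the automated library and 68.8% in the manual library. LOC106877637 was the highest, at 7281 and 6722 CPM in the automated and manual libraries, which made it number 8 of all genes in whole cup by mean level. It had 183 CPM in rim cells, where it held place 1119, 2 reads in mantle skin, none in olfactory organ and eye, 1 in optic lobe and 3 in statocyst. The ratio of whole cup to rim cells, without pseudocount and over the pooled reads of both whole cup libraries, was 38.5 (37.6 to 39.5).

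LOC106873817 was next, with 4196 and 4218 CPM in whole cup and 789 CPM in rim cells. Its ratio of 5.33 (5.26 to 5.40) was among the smallest, and it was still among the abundant genes of the rim library, at place 171. It had 1 read in mantle skin and 139 reads in eye (11.4 CPM), and none in olfactory organ, optic lobe and statocyst. LOC106871109 had 3447 and 3510 CPM in whole cup and 198 CPM in rim cells, and 1 to 4 reads in each of the other 5 libraries. LOC106873033 had 3458 and 3332 CPM in whole cup, 183 CPM in rim cells, 3 reads in mantle skin and no read elsewhere. These 2 genes were close to each other in both sucker tissues, with ratios to rim cells of 17.6 (17.2 to 18.0) and 18.6 (18.1 to 19.1).

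Below these stood LOC106883656, at 1134 and 1124 CPM in whole cup and 121 CPM in rim cells, and LOC106868448, at 860 and 818 CPM in whole cup and 99.4 CPM in rim cells. Neither had a read in mantle skin, eye or optic lobe. LOC106883656 had 6 reads in statocyst, and LOC106868448 had 2 reads in olfactory organ and 1 in statocyst. LOC106878799 had 732 and 912 CPM in whole cup and 15.2 CPM in rim cells, a larger step, with a ratio of 53.0 (48.7 to 57.7). Its reads elsewhere were 2 in eye, 1 in optic lobe and 10 in statocyst.

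Read as a share of the whole cup level, the rim cell level of the 33 genes ran from 0.0339% to 23.1%, with a median of 7.92%. It was under 1% for 4 genes, 1 to 5% for 7, 5 to 10% for 8, and 10% or more for 14. The median log2 ratio of whole cup to rim cells (CPM + 1) was 3.30, and 13 genes exceeded 16-fold. LOC106873817 and LOC106868084 kept 18.7% and 23.1% in rim cells, while genes both above and below them in whole cup kept under 10%. Whether the size of this step followed the level in whole cup over the 33 genes was not tested.

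**Figure D2:**
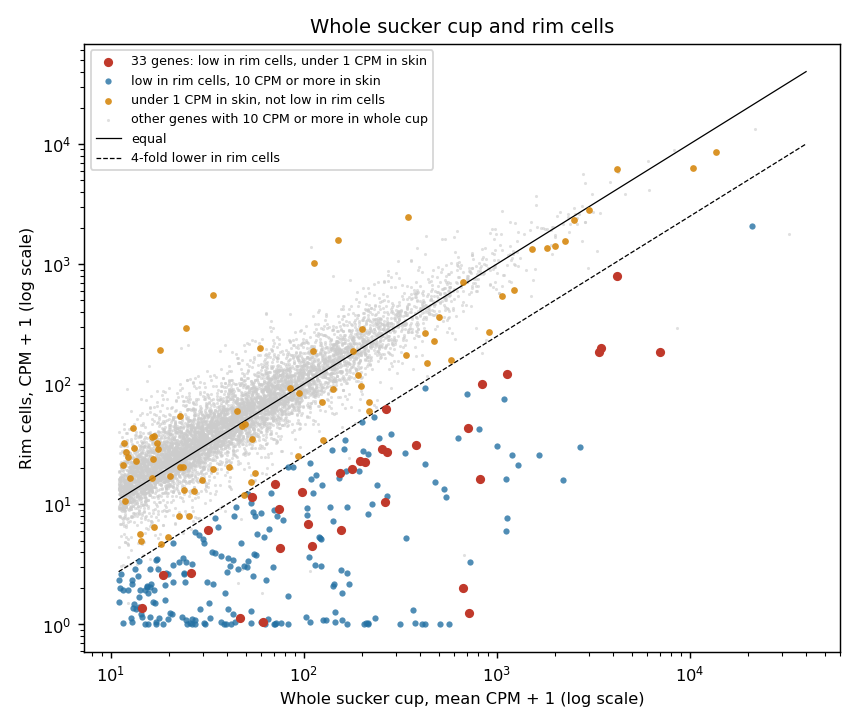
Level in rim cells against mean level in whole cup, both as CPM + 1 on log scales, for the 7833 genes with at least 10 CPM in whole cup, with lines of equality and of a 4-fold lower level in rim cells. The 33 genes (red) lie below the lower line by the rule, from close to it (LOC106868084, 61.3 CPM in rim cells) to near the bottom of the plot (LOC106872736, 0.0542 CPM).

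At the far end were genes with almost no rim reads in the deepest library of the series. LOC106881506 had 723 and 717 CPM in whole cup and 9 reads in rim cells (0.244 CPM), and its ratio was 2956 (1557 to 6465). LOC106877965 had 662 and 676 CPM in whole cup and 38 reads in rim cells (1.03 CPM), with a ratio of 649 (473 to 917). LOC106872736 had 61.9 and 58.7 CPM in whole cup and 2 reads in rim cells, which puts the ratio at 1118 (309 to 9243). No other library held a read of LOC106872736. The upper limit that 0 reads allow ran from 0.243 CPM in statocyst to 0.771 CPM in mantle skin. LOC106873005 had 44.6 and 47.3 CPM in whole cup, 5 reads in rim cells (ratio 338, 144 to 1042) and 23 reads in statocyst (1.52 CPM). The genes that were scarcest in rim cells therefore included both abundant and modest genes of the cup.

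In mantle skin, the shallowest library, 1 read was worth 0.209 CPM, so that the limit of 1 CPM admitted up to 4 reads. No read was found for 20 of the 33 genes, 1 read for 5, 2 reads for 2, 3 reads for 5 and 4 reads for 1. A count of 0 allows up to 0.771 CPM and a count of 4 up to 2.14 CPM. For 13 genes a skin level above 1 CPM is thus within counting error.

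The values beside the limits show how the choice was drawn. Just inside the 4-fold limit were LOC106868084, with 266 and 264 CPM in whole cup and 61.3 CPM in rim cells, then LOC106870792 and LOC106877870. Their log2 ratios, for the lower of the whole cup libraries, were 2.09, 2.17 and 2.24. Just outside were LOC106876827, LOC106869761 and LOC106871362, with log2 ratios of 1.92, 1.92 and 1.88. Inside the 1 CPM limit in skin, LOC106877870 had 4 skin reads, and LOC106871166 and LOC106872312 had 3. Outside it, LOC106867699 and LOC106875600 had 5 skin reads each. LOC106869021 had 6, although it reached 8825 and 8252 CPM in whole cup, above every gene inside, and 293 CPM in rim cells. At the floor of 10 CPM in whole cup the choice was not close. The lowest genes inside, LOC106870407, LOC106883992 and LOC106871166, had means of 13.5, 17.8 and 25.0 CPM. The genes outside that met the other conditions, LOC106882026 and LOC106874792, had 5.28 and 3.40 CPM.

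The tissues that played no part in the choice were then examined. In 14 of the 33 genes, olfactory organ, eye, optic lobe and statocyst all lay under 1 CPM, against 111 of the 7833 genes of whole cup (1.42%). Genes low in skin but not in rim cells were often under 1 CPM there too. Of the 77 whole cup genes that were also under 1 CPM in skin but not 4-fold lower in rim cells, 40 lay under 1 CPM in all 4 tissues (51.9%), against 42.4% of the 33 genes. Of the 213 genes that were low in rim cells but had at least 10 CPM in skin, 49 did so (23.0%). Besides LOC106872736, the genes without a read in any of the 4 tissues were LOC106873033, LOC106879788 and LOC106883992. LOC106879788 had 74.0 and 72.3 CPM in whole cup and 8.21 CPM in rim cells, and LOC106883992 had 18.8 and 16.8 CPM in whole cup and 1.57 CPM in rim cells. The other 10 of the 14 had reads in at least 1 of the 4 tissues, each under 1 CPM. Counted by tissue, 29 of the 33 genes lay under 1 CPM in olfactory organ (2.09% of all whole cup genes), 15 in eye (4.32%), 31 in optic lobe (12.8%) and 27 in statocyst (7.33%).

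At a level of at least 1 CPM, eye was where the genes appeared most often outside the sucker. It held at least 1 CPM of 18 of the 33 genes (54.5%), against 26 of the 77 skin-low genes (33.8%), 113 of the 213 genes shared with skin (53.1%), and 95.7% of all whole cup genes. By reads alone eye did not lead statocyst, since 9 of the 33 genes had no read in eye and 9 had none in statocyst. Of all whole cup genes, 1.31% and 1.88% had no read there. At least 10 CPM was reached in eye by 7 of the 33 genes, against 85.7% of all whole cup genes. The corresponding counts were 3 in olfactory organ (92.8%), 1 in statocyst (81.5%) and 0 in optic lobe (69.5%). At least 10 CPM in any of the 4 tissues was reached by 7 of the 33 genes (21.2%), each of them in eye, against 16 of the 77 skin-low genes (20.8%), 134 of the 213 genes (62.9%) and 96.4% of all whole cup genes. The median level of the 33 genes was 1.23 CPM in eye, 0.132 CPM in statocyst and 0.0701 CPM in olfactory organ, and 0 in optic lobe. The 77 skin-low genes had medians of 0.327 CPM in eye, 0.132 CPM in statocyst, 0.421 CPM in olfactory organ and 0 in optic lobe. Within the 33 genes, eye was the highest of the 4 tissues for 13 (39.4%), against 24.7% of the 77 genes, 29.1% of the 213 genes and 10.1% of all whole cup genes. Among the 15 genes low in rim cells with 1 to 10 CPM in skin it was the highest for 6 (40%), a share like that of the 33. With 1 eye library, whether these shares differ beyond variation between animals could not be tested. The 13 genes of the 33 with eye highest included LOC106883462, LOC106883460, LOC106880948, LOC106883459 and LOC106882396, a group described below. Also among them were LOC106877965, LOC106877966, LOC106873817, LOC106869651 and LOC106869653, from runs of neighbouring genes. Reads of near-identical genes can be split between them, and similarity in sequence was not examined. The 13 may therefore not be separate cases.

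**Figure D3:**
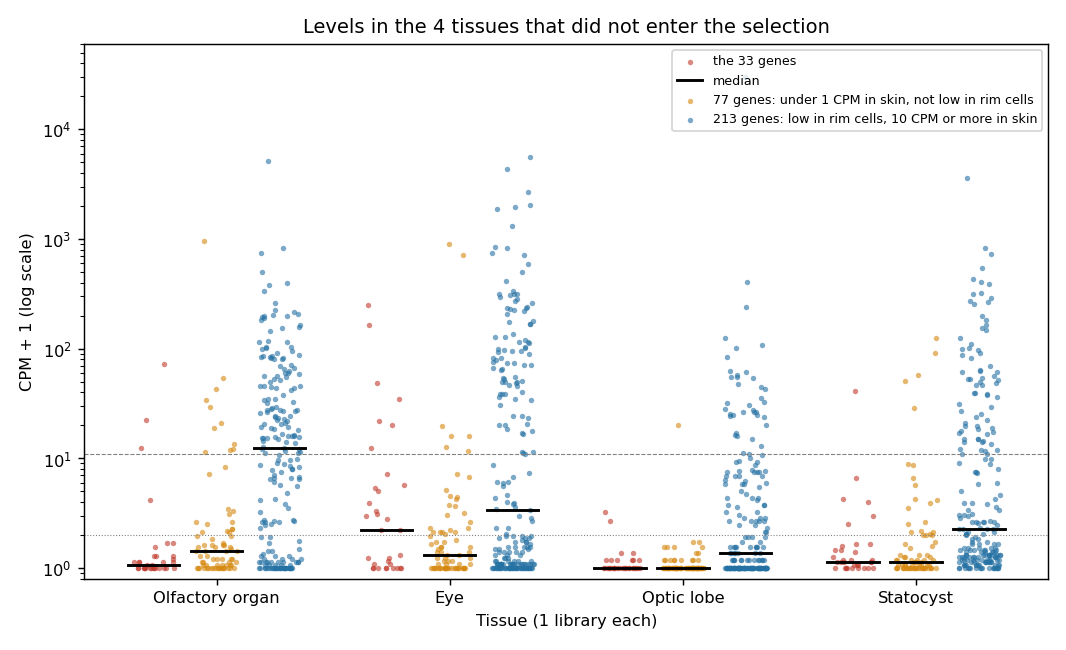
CPM + 1 on a log scale in olfactory organ, eye, optic lobe and statocyst for the 33 genes, the 77 genes under 1 CPM in skin and not low in rim cells, and the 213 genes low in rim cells with at least 10 CPM in skin. Bars are medians, and dotted and dashed lines mark 1 and 10 CPM. The median of the 33 genes lies above the 1 CPM line in eye (1.23 CPM) and below it in the other tissues.

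Whole cup was at least 4-fold above optic lobe for all 33 genes (25% of all whole cup genes), above olfactory organ for 32 (4.33%), above statocyst for 31 (17.7%) and above eye for 28 (12.1%). The 77 skin-low genes were much alike, at 98.7% for optic lobe, 81.8% for olfactory organ, 85.7% for statocyst and 88.3% for eye. Of the 33 genes, the 5 that missed this in at least 1 tissue were LOC106869651, LOC106869653, LOC106872312, LOC106877870 and LOC106870407. LOC106869651 had 104.2 and 104.4 CPM in whole cup, 5.85 CPM in rim cells, 252 CPM in eye and 21.6 CPM in olfactory organ. It had no read in mantle skin and optic lobe and 7 in statocyst. LOC106869653 had 28.4 and 33.3 CPM in whole cup, 5.12 CPM in rim cells and 165 CPM in eye, and apart from 1 read in statocyst no other. Among the 33 genes, these 2 were higher in eye than in both whole cup libraries (42.8% of all whole cup genes), with ratios of whole cup to eye of 0.414 (0.391 to 0.438) and 0.185 (0.169 to 0.202). None of the 33 was higher than both whole cup libraries in olfactory organ (61.7%), optic lobe (34.2%) or statocyst (54.6%). Among the 77 skin-low genes such cases were also few, at 3.90% in eye, 7.79% in olfactory organ, 0% in optic lobe and 5.19% in statocyst.

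LOC106872312 was spread over 3 organs, with 109 and 110 CPM in whole cup, 71.3 CPM in olfactory organ and 47.8 CPM in eye. It was low in rim cells (3.47 CPM), with 3 reads in mantle skin, 3 in statocyst and none in optic lobe. Its ratio of whole cup to olfactory organ was 1.53 (1.42 to 1.65) and to eye 2.29 (2.09 to 2.51). LOC106877870 had 69.1 and 70.9 CPM in whole cup and 13.8 CPM in rim cells, 40.6 CPM in statocyst, 19.4 CPM in eye and 11.4 CPM in olfactory organ. It was the only gene of the 33 with 10 CPM in statocyst, had 4 reads in skin and none in optic lobe, and stood 1.72-fold (1.56 to 1.89) higher in whole cup than in statocyst.

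LOC106881506 combined the lowest share in rim cells with reads in every other library. It had 33.5 CPM in eye, 5.67 CPM in statocyst, 2.23 CPM in optic lobe, 8 reads in olfactory organ and 1 in skin. Its ratio of whole cup to eye was 21.5 (19.5 to 23.8). LOC106870407, the least abundant of the 33, had 13.8 and 13.1 CPM in whole cup and 14 reads in rim cells (0.379 CPM). It had 3.30 CPM in statocyst, 2.94 CPM in eye, 1.67 CPM in optic lobe, 10 reads in olfactory organ and 3 in skin. These 2 were the only genes of the 33 above 1 CPM in optic lobe. LOC106867481, which followed in optic lobe with 2 reads, as did LOC106875909, had 262 and 262 CPM in whole cup, 9.43 CPM in rim cells, 1.98 CPM in statocyst and 1.23 CPM in eye.

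The 2 whole cup libraries were close for most of the genes. The median difference over the 33 genes was 1.04-fold, against 1.07-fold over the 7833 genes of whole cup, and 2 of the 33 differed by more than 1.2-fold, against 12.3% of all. The manual library was higher beyond counting error for 7 genes (13% of all) and lower for 4 (8.76%). The median whole cup level was 194 CPM for the 33 genes and 40.2 CPM for the 7833. Counting error shrinks as reads increase, and no comparison was made at like level, so these figures do not set the 33 genes apart. LOC106878799 was 1.25-fold (1.21 to 1.29) higher in the manual library. LOC106880749 went the other way, with 230 CPM in the manual and 309 CPM in the automated library, a ratio of 0.744 (0.704 to 0.787). It had 26.4 CPM in rim cells, 3 reads in skin, 10 in olfactory organ and 1 to 3 in each of the rest. LOC106869653 had the next ratio, 1.17 (0.996 to 1.38), which counting error covers. LOC106877637, with its many reads, was lower in the manual library by a small amount that exceeded counting error (0.923, 0.914 to 0.933). As it is not known whether the 2 libraries are separate suckers, these differences cannot be placed against variation between suckers.

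**Figure D4:**
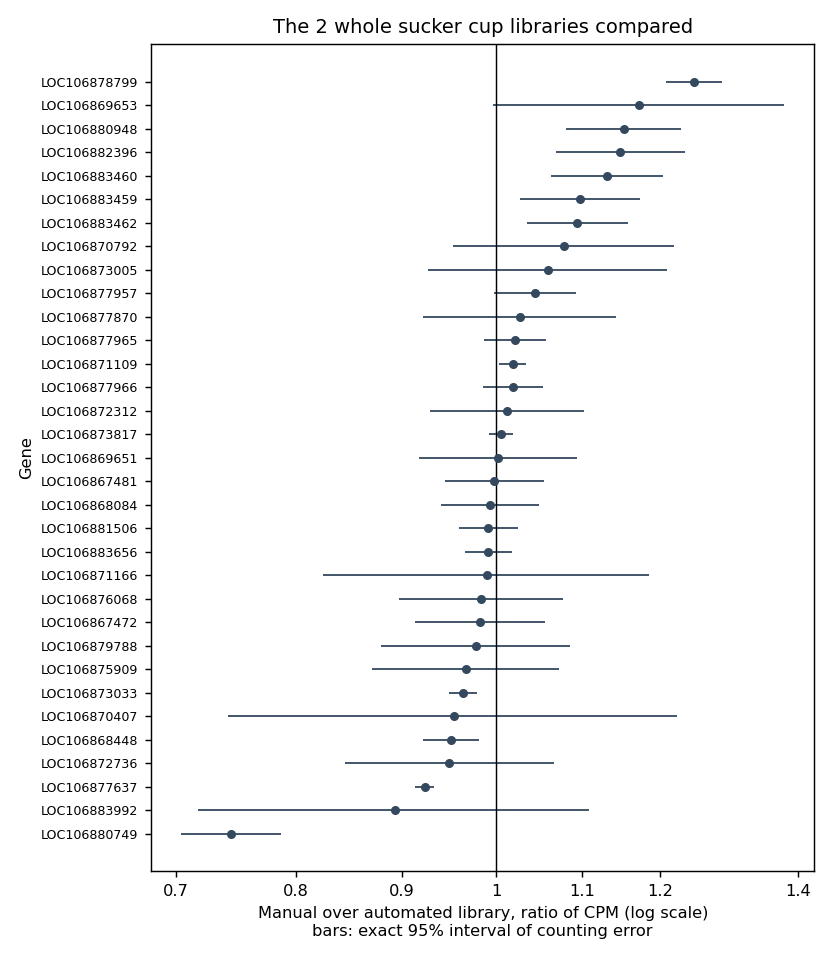
Ratio of CPM in the manual over the automated whole cup library for each of the 33 genes, on a log scale, with exact 95% intervals of counting error. LOC106880749 (0.744) and LOC106878799 (1.25) stand farthest from 1, and LOC106883462, LOC106883460, LOC106880948, LOC106883459 and LOC106882396 lie between 1.09 and 1.15.

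A group of 5 genes was singled out after the values were seen. The choice used a narrow range of rim cell share and a manual level above the automated level beyond counting error. LOC106883462, LOC106883460, LOC106880948, LOC106883459 and LOC106882396 had mean levels of 153 to 252 CPM in whole cup. Their rim cell levels were 10.5 to 11.4% of whole cup, and their manual over automated ratios 1.09 to 1.15. Likeness in these 2 values follows from the choice. LOC106883656, LOC106868448 and LOC106879788 had like rim shares (10.7%, 11.8% and 11.2%) without a higher manual level, and were left out. None of the 5 had a read in skin or optic lobe, and eye held 49 to 255 reads of each, or 2.23 to 8.25% of the whole cup level. LOC106883462 was the highest in eye (20.8 CPM) and LOC106883460 had 46 reads in statocyst, where the others had 2 to 4. Reads were assigned to transcripts, and reads of near-identical genes can be split between them. Whether these genes are similar in sequence was not examined, as no sequences were used here, and their values are uncertain to that extent.

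Their positions were read from a reference gene table of the assembly ASM119413v2. Since no source names the build of the deposited values, only the order of genes was taken from it. Of the 33 genes, 29 were found in it and 27 were placed on its chromosomes, among 13929 placed genes of the deposited table. For 8 of the 27, the next measured gene on at least one side was another of the 33. Of all placed genes, 51 (0.366%) had one of the 33 as a neighbour. The 8 genes formed a run of 4 and 2 runs of 2. In the skin-low set, 10 of 62 placed genes had a neighbour from their own set, against 119 of all placed genes (0.854%). In the set low in rim cells with at least 10 CPM in skin, 50 of 184 placed genes did, and the share over all placed genes was not counted. A larger set has more such neighbours by its size alone, so the shares of these sets cannot be compared directly.

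The run of 4 held LOC106877965, LOC106877957, LOC106877966 and LOC106873817 in this order. LOC106877957 had 372 and 389 CPM in whole cup and 30.1 CPM in rim cells, and LOC106877966 had 701 and 714 CPM in whole cup and 42.2 CPM in rim cells. The 4 genes kept 0.154%, 7.92%, 5.97% and 18.7% of the whole cup level in rim cells. In eye they had 28, 1, 22 and 139 reads, and elsewhere outside the sucker at most 2. Whether these neighbours are similar in sequence, so that reads could be split between them, was not examined. Their separate levels and ratios, here and above, are uncertain to that extent. Before the run stood LOC106877958, which was also a cup gene without skin reads to speak of, at 86.0 and 82.5 CPM in whole cup, but had 92.3 CPM in rim cells. After it, LOC106874156 had 6.68 and 7.11 CPM in whole cup and 8.94 CPM in rim cells, and was highest in statocyst (28.0 CPM).

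The first run of 2 was LOC106883459 beside LOC106880948, both among the 5 genes singled out above. LOC106883459 had 168 and 184 CPM in whole cup, 18.8 CPM in rim cells and 4.74 CPM in eye. LOC106880948 had 180 and 208 CPM in whole cup, 22.1 CPM in rim cells and 4.33 CPM in eye. The other 3 genes of that group were not found in the reference table, so whether they lie nearby is not known. The second run of 2 was LOC106869653 beside LOC106869651, the pair that was higher in eye than in whole cup. Of the pair, LOC106869651 had reads in olfactory organ and LOC106869653 had none. Similarity in sequence was not examined for this pair either, so the separate levels are uncertain to that extent.

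**Figure D5:**
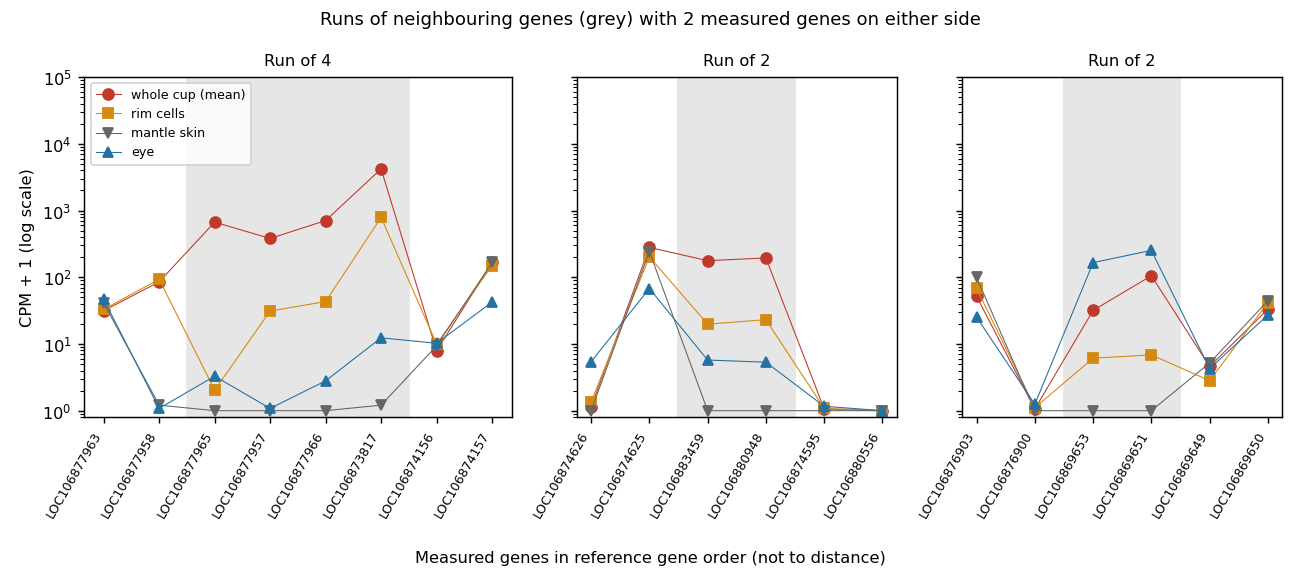
CPM + 1 on a log scale in whole cup (mean of 2 libraries), rim cells, mantle skin and eye for the 3 runs of neighbouring genes (grey) and the 2 measured genes on either side, in reference gene order and not to distance. Within the run of 4 whole cup stays between 380 and 4207 CPM while rim cells range from 1.03 to 789 CPM, and in the run of LOC106869653 and LOC106869651 eye lies above whole cup.

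Several of the 33 genes also neighboured cup genes that were low in skin but not low in rim cells. This held for LOC106877965, LOC106871109, LOC106873005 and LOC106883992, 4 of the 27 placed genes, against 119 of 13929 placed genes (0.854%). With both kinds of neighbour counted, 11 of the 27 lay next to another whole cup gene under 1 CPM in skin, against 169 of all placed genes (1.21%). LOC106873005, nearly unread in rim cells, stood beside LOC106873015, which had 4238 and 4150 CPM in whole cup and 6212 CPM in rim cells. LOC106883992, with 1.57 CPM in rim cells, lay between LOC106882063, at 2577 and 2457 CPM in whole cup and 2343 CPM in rim cells, and LOC106883990, at 2289 and 2215 CPM in whole cup and 1567 CPM in rim cells. LOC106871109 was followed by LOC106871108, at 2040 and 1948 CPM in whole cup and 1414 CPM in rim cells. Low skin levels and the separation in rim cells follow from how the genes and these neighbours were chosen.

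The remaining genes of the 33 fell within the ranges above. LOC106867472 had 157 and 154 CPM in whole cup, 5.07 CPM in rim cells and 1.96 CPM in eye, and LOC106875909 had 76.1 and 73.6 CPM in whole cup, 3.36 CPM in rim cells and 1.23 CPM in eye. LOC106870792 had 51.2 and 55.2 CPM in whole cup, 10.6 CPM in rim cells, 3.22 CPM in olfactory organ and 2.12 CPM in eye. LOC106876068 had 97.9 and 96.2 CPM in whole cup and 11.8 CPM in rim cells, and a single read in statocyst elsewhere. LOC106871166 had 25.1 and 24.8 CPM in whole cup and 1.68 CPM in rim cells, with 3 reads in skin and 2 in olfactory organ. Eye held reads of LOC106867472, LOC106875909 and LOC106870792 and none of LOC106876068 and LOC106871166.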

How the data were processed

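RNA was measured in 16 labelled samples, which are 8 libraries on 2 lanes each. The authors deposited 1 table with 1 column per library, in log2(CPM + 1), a scale read from the values. The submitters' processing notes name Trim Galore and kallisto, without versions, and no source used here names the build or annotation. Deposited log2 values were inverted to CPM, and reads were recovered as whole multiples of 1 read (100% of values within 0.01 reads). As kallisto estimates can be fractional, the authors may have rounded them before scaling. CPM assumes that total RNA is comparable between tissues. Intervals are exact Poisson for levels, Wilson for shares and Clopper-Pearson for ratios, all at 95%. No significance test was made, since tissues other than whole cup had 1 library.

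The genes, the groups they are set against and the rule for those named were chosen with earlier results of these data known. The named genes are the 10 most abundant in whole cup, the 5 with the lowest ratio of rim cells to whole cup (CPM + 1), the 3 highest in each of olfactory organ, eye, optic lobe and statocyst, the 3 with the largest difference between the whole cup libraries, those next to one another, and those beside each limit. Others were added after their values were seen. Planned protein and promoter features were not computed, as no sequences were used here. The selection code was run on simulated counts with genes set well inside its limits and counting noise only. That run checked the code, and it says nothing on genes near the limits or on variation between animals. Scripts ran in Python 3.11.15 with numpy 2.4.6, pandas 2.3.3, scipy 1.17.1 and matplotlib 3.10.9.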

Additional observations from a re-analysis of the deposited data

How the results depend on the processing

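The number of genes stayed between 23 and 40 under every alternative except a 2-fold limit, which gave 54, and a demand that the upper counting limit in skin lie under 1 CPM, chosen after the data were seen, which gave 20. The 33 genes were all retained with pseudocounts of 0.1 CPM, lower floors, a skin limit of 2 CPM, size factors and either whole cup library left out, and 32 were with thinned libraries. Leaving out a whole cup library gave 34 genes each time, 2.59 to 2.63% of whole cup reads, 15 genes under 1 CPM in the 4 further tissues, 7 with 10 CPM in any, and 8 neighbours. The share of whole cup reads, 2.61% on average, became 2.22% and 3.49% with skin limits of 0.5 and 2 CPM, 3.08% and 2.09% with 2-fold and 8-fold limits, and 2.72% with median-of-ratios size factors. A 2-fold limit gave 25 genes under 1 CPM in the 4 tissues and 12 with at least 10 CPM in any. The number with at least 10 CPM in any was 11 with a skin limit of 2 CPM and 4 with an 8-fold limit, which left 3 neighbours. These limits admit more or fewer genes by construction. The median log2 ratio to rim cells, 3.30, was 3.65 and 3.13 with pseudocounts of 0.1 and 5 CPM. Size factors moved log2 values by -0.39 (statocyst) to 0.47 (optic lobe). Alternatives on hydrophobic stretches were not run, as no sequences were used here. No paired analysis was possible, since the labels give no animals and tissues other than whole cup had 1 library. Depth limits skin most, where 13 of the genes could lie above 1 CPM.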
